A study of Mustela putorius furo with 10 samples.

Results

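PMEPA1 and LDLRAD4 are related membrane proteins that restrain the transforming growth factor beta (TGF-beta) pathway, and both were lower in peripheral blood mononuclear cells (PBMC) of cold-exposed ferrets than in those of control ferrets. They are described here together with the core of the pathway, from a list of 10 genes: PMEPA1, LDLRAD4, SMAD2, SMAD3, SMAD4, SMAD7, TGFBR1, TGFBR2, SKI and SKIL. The array sequences were named through the RefSeq ferret gene of their accession, which found 6 of the 10 genes, and all 6 were well above background on at least 4 of 10 arrays. They are PMEPA1, LDLRAD4, SMAD2, SMAD3, SMAD7 and SKIL, out of 26303 units measured in the series, all called genes here. Of these, 9276 are named genes and each of the others is a target sequence without a name. A gene can therefore be counted more than once among the unnamed. No probe of these 6 genes was close to that limit, since even the dimmest passed on 9 arrays. SMAD4, TGFBR1, TGFBR2 and SKI were not analysed here. PMEPA1 and LDLRAD4 were put on the list because they differed in this same comparison, so their values are given as a description, without a test.

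The animals were male ferrets of 3 months of age. PBMC, the lymphocytes and monocytes of blood, were isolated on a Ficoll gradient after 1 week at 22 °C (control, 6 arrays) or at 4 °C (cold, 4 arrays). Each array held the RNA of 1 animal, labelled with the green dye Cy3, against 1 common pool of PBMC and other tissues in the red dye Cy5. The labels state that cold-exposed animals were kept in individual cages and do not give the housing of the controls, so that temperature and housing cannot be told apart. Values are log2 ratios of Cy3 to Cy5, normalized within each array by a loess curve over intensity. A value of 0 is therefore the typical ratio at that intensity, and not equal abundance in the ferret's cells and the pool. A change is the mean of the cold arrays less the mean of the control arrays.

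TGF-beta binds a pair of receptor kinases, which phosphorylate SMAD2 and SMAD3, and these enter the nucleus with SMAD4 to turn target genes on or off. The pathway holds itself back through proteins that its own signal often induces, among them SMAD7, SKIL and PMEPA1. In blood, the pathway is best known for restraining T cell activation, and platelets are a large store of the ligand TGF-beta 1. PMEPA1 and LDLRAD4 each bind SMAD2 and SMAD3 and keep them from the receptor, and each carries short motifs that bind ubiquitin ligases of the NEDD4 family.

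The share of spots whose Cy3 signal exceeded background was 50.4 to 63.5% in control and 58.0 to 61.1% in cold. The pool was dimmer, with shares of 27.0 to 54.9% and 40.5 to 64.0%. Across the 26303 genes, the median log2 change was -0.01 and 52.0% of the genes were lower in cold. At the unadjusted threshold of the methods, a p of 0.01, limma called 2272 genes (8.64% of all genes). Of these, 1371 (5.21%) were higher and 901 (3.43%) lower in cold. Most calls were lower instead with median centring (215 higher, 948 lower) and with processed intensities (640 higher, 865 lower). The same held in the deposited value table (505 higher, 588 lower) and without the fifth control array (1462 higher, 1890 lower). After Benjamini-Hochberg adjustment no gene passed 0.05, neither in limma nor by the methods' t-test, while 6501 genes (24.7%) had an unadjusted limma p under 0.05. The counts at 0.01 and after adjustment both depended on single arrays and on the processing. Leaving out 1 array gave 1275 genes at 0.01 (4.85%, without the third cold array) to 3386 (12.9%, without the second cold array), and after adjustment 633 genes passed without the fifth control array, 1272 without the second cold array, 12 without the first, 741 in Cy3 alone, 115 with probes above background on all 10 arrays and 5 with slide position as a block. The groups did not overlap for 1374 genes (5.22%), of which 566 (2.15% of all genes) were lower in cold.

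PMEPA1 was 1.56-fold lower in cold. Its log2 ratio on the 6 control arrays ranged from 0.09 to 0.51, with a median of 0.38. On the 4 cold arrays it was 0.09, -0.36, -0.64 and -0.35. The groups thus touched at 1 point, where the first cold array lay level with the lowest control array. The other 3 cold arrays lay below all controls. The controls averaged 0.32 ± 0.16 (SD, n = 6) and the cold arrays -0.31 ± 0.30 (SD, n = 4), a log2 change of -0.64 with a standard error of 0.14.

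LDLRAD4 was 1.36-fold lower in cold. Its log2 ratio in control ranged from -0.49 to -0.21, with a median of -0.30. In cold it was -0.72, -0.55, -0.93 and -0.94. Every cold array was below every control array, which was the case for 2.15% of all genes in this direction and is a part of why the gene was listed. The controls averaged -0.34 ± 0.12 (SD, n = 6) and the cold arrays -0.79 ± 0.19 (SD, n = 4), a log2 change of -0.45 with a standard error of 0.10.

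**Figure D1:**
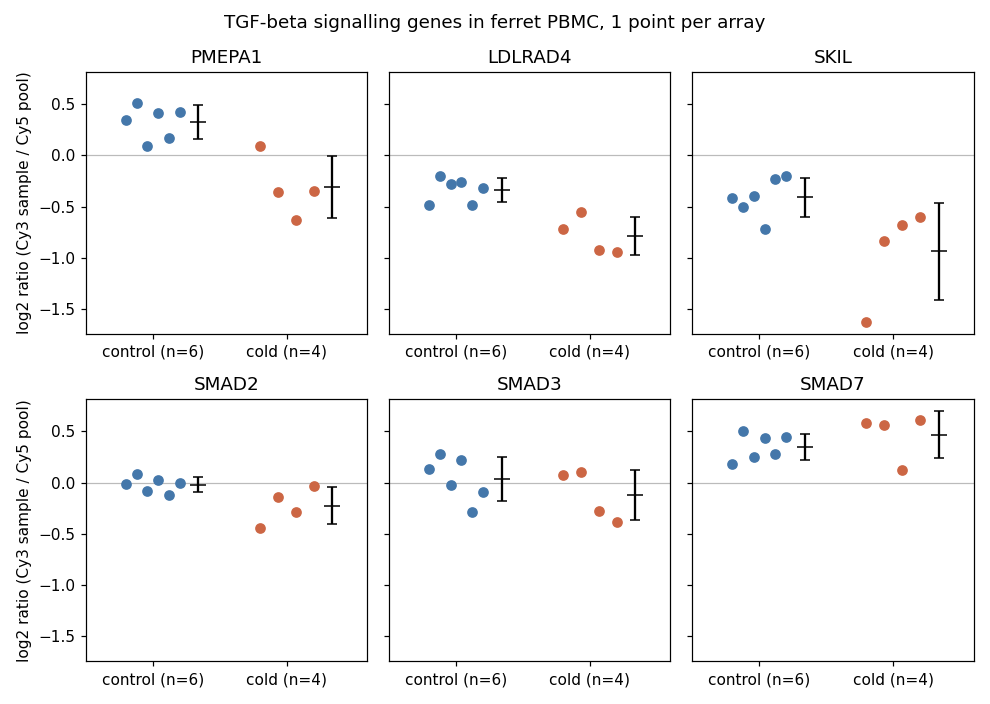
Log2 ratio of Cy3 (ferret PBMC) to Cy5 (reference pool) of the 6 genes, 1 point per array, for 6 control (blue) and 4 cold (orange) arrays, with the mean and SD in black. All cold arrays of LDLRAD4 lie below its controls, PMEPA1 touches at 0.09, 1 cold array of SKIL stands at -1.63, and 1 cold array of SMAD7 stands at 0.13, below the other cold arrays.

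The lower values did not rest on a single probe. PMEPA1 was measured by 4 probes of 1 target sequence, XM_004759915, and all 4 were lower in cold, by log2 changes from -0.75 to -0.53. LDLRAD4 was measured by 8 probes of 2 target sequences, and all 8 were lower, with log2 changes from -0.56 to -0.23. The sequences of LDLRAD4 gave nearly equal changes of -0.45 (XM_004742659, where the groups overlapped) and -0.44 (XM_004742662, where they did not). SKIL (XM_004756560) and SMAD2 (XM_004752197) were lower on 4 of 4 probes each, with ranges of -0.60 to -0.38 and -0.29 to -0.09. The probes of SMAD3 (XM_004758623) and SMAD7 (XM_004752186) did not share a direction, since 1 of 4 was higher for SMAD3 and 1 of 4 was lower for SMAD7. None of the probes of the 6 genes was saturated.

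**Figure D2:**
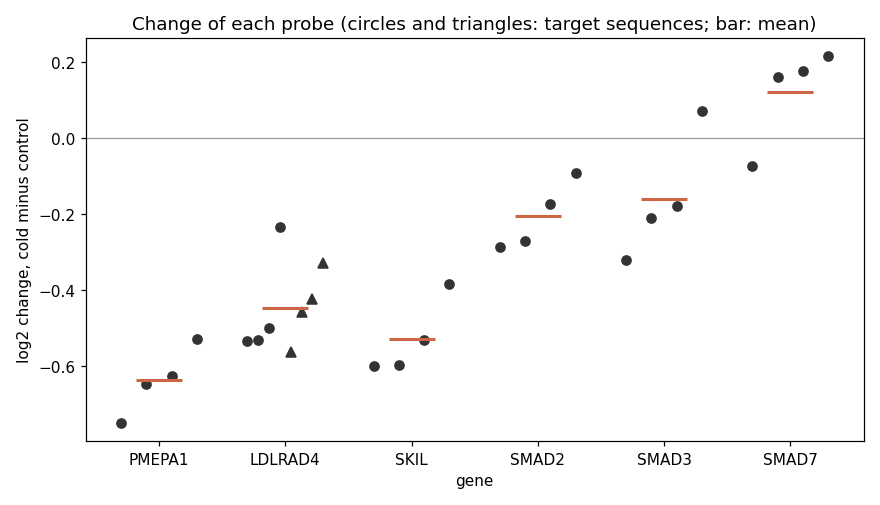
Log2 change (cold minus control) of each probe of the 6 genes, with the mean of the probes as an orange bar, where circles and triangles mark the target sequences of a gene. All probes of PMEPA1 (-0.75 to -0.53), LDLRAD4, SKIL and SMAD2 lie below 0, while SMAD3 and SMAD7 have probes on both sides.

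A 2-colour ratio can move through the sample or through the pool, so both channels were also normalized on their own by quantiles. This gives every array the same distribution, so that differences in the brightness of a whole channel are removed. Before it, the mean Cy5 intensity of PMEPA1 was 139.7 in control and 436.9 in cold. That of LDLRAD4 was 113.4 in control and 341.8 in cold. For PMEPA1 the Cy3 channel was lower in cold by a log2 change of -0.83 (standard error 0.23), while the Cy5 channel moved by 0.05. In Cy3 alone the control arrays of PMEPA1 ranged from 10.4 to 11.5 log2 units and the cold arrays from 9.76 to 10.8, so that the groups overlapped through the lowest control array and the highest cold array. For LDLRAD4 the Cy3 change was -0.31 (standard error 0.14) and the Cy5 change 0.05, and the Cy3 ranges overlapped as well, with 9.1 to 9.7 in control and 9.0 to 9.4 in cold. Both genes were thus lower in the channel of the ferret RNA, and the separation of the groups of LDLRAD4 was seen for the ratio and not for Cy3 alone. The same comparison gave a Cy3 change of -0.37 for SMAD3 (limma adjusted p = 0.122), -0.29 for SKIL (adjusted p = 0.460) and -0.11 for SMAD2 (adjusted p = 0.464).

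**Figure D3:**
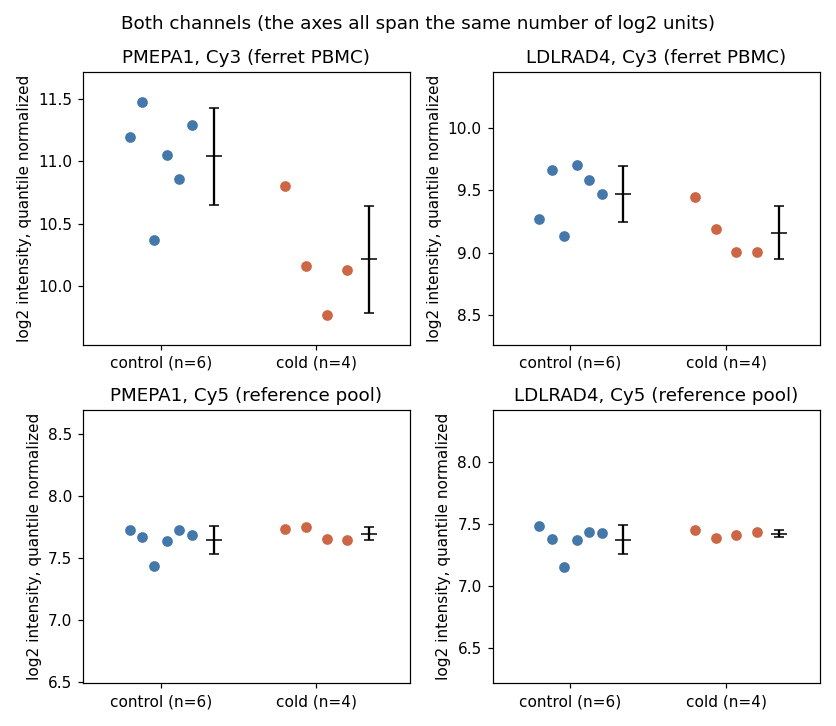
Quantile-normalized log2 intensity of PMEPA1 and LDLRAD4 in each channel, 1 point per array with the mean and SD in black, on axes of equal span. The Cy3 means are lower in cold by 0.83 and 0.31 log2 units, and the Cy5 means lie within 0.05 of each other.

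The 4 other measured core genes were listed as parts of the pathway, although with earlier results of these data known. None of them passed the unadjusted threshold of 0.01 (limma), which 8.64% of all genes passed. At an unadjusted p of 0.05 there were 2 of 4, SKIL and SMAD2, both lower in cold, by limma and by the methods' t-test alike, against 24.7% of all genes in either direction. SMAD2 and SMAD3 are the receptor-activated SMADs that carry the signal. For SMAD2 the controls ranged from -0.12 to 0.09 (median -0.01) and the cold arrays were -0.44, -0.14, -0.28 and -0.03. Of the cold arrays, 3 lay below all controls and 1 lay among them. The log2 change was -0.21, with a 95% confidence interval from -0.40 to -0.01 and an unadjusted limma p of 0.0431 (adjusted p = 0.190, exact two-sided permutation p = 0.0238). Without the first cold array it was -0.13, and it was 0.02 in the deposited value table.

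For SMAD3 the controls ranged from -0.29 to 0.27 (median 0.05) and the cold arrays were 0.08, 0.10, -0.28 and -0.39. The first 2 cold arrays lay among the controls and only the fourth lay below them. The log2 change was -0.16, with a confidence interval from -0.46 to 0.14 (limma p = 0.272, adjusted p = 0.502, exact permutation p = 0.305). The ratio thus showed no detectable change of SMAD3, and its size depended on the scaling, with a log2 change of -0.37 in Cy3 alone and -0.86 with median centring (limma adjusted p = 0.164), which was -0.44 relative to the median of all genes. Without the fourth cold array the change was -0.07, and it was below 0 in all 22 alternatives.

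SKIL, also called SnoN, is a corepressor that binds the SMADs in the nucleus and is degraded when TGF-beta signals. Its controls ranged from -0.72 to -0.20 (median -0.41), and the cold arrays were -1.63, -0.84, -0.68 and -0.60. The first 2 cold arrays lay below all controls and the other 2 lay above the lowest control. The log2 change was -0.53, with a confidence interval from -0.94 to -0.11 (limma p = 0.0172, adjusted p = 0.133, exact permutation p = 0.0143). The first cold array carried part of this value, and without it the change was -0.30.

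SMAD7, the inhibitory SMAD that blocks the receptor and recruits ubiquitin ligases to it, is the classical feedback gene of the pathway. Its controls ranged from 0.18 to 0.50 (median 0.35), and the cold arrays were 0.58, 0.56, 0.13 and 0.61. Of the cold arrays, 3 lay above all controls and 1 lay below all of them. The log2 change was 0.12, with a confidence interval from -0.13 to 0.37 (limma p = 0.304, adjusted p = 0.536, exact permutation p = 0.281). With 1 array left out it was 0.07 (without the fourth cold array) to 0.235 (without the third). In Cy3 alone the change was -0.04, level with the median of all genes there (-0.04). With median centring of the arrays it was -0.34, where the median of all genes was -0.43, so that SMAD7 lay 0.09 above that median. SMAD7 was the only one of the 6 genes with a higher mean ratio in cold under loess normalization, and with the processed intensities of the scanner software it was at -0.33.

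The rest of the pathway was read from a list of 72 further genes, of which 48 were measured. A total of 5 genes (10.4%) passed the unadjusted threshold of 0.01, a share close to the 8.64% of all genes, with 1 higher and 4 lower in cold. The median change of the 48 genes was -0.04, beside -0.01 over all genes, and 21 were higher and 27 lower. None passed an adjusted p of 0.05 by limma, where 17 (35.4%) had an unadjusted p under 0.05 (24.7% of all genes). Without the second cold array 5 passed the adjusted threshold, as did 1272 of all 26303 genes. The 5 were BAMBI, ID3, TGFB1, TGIF1 and the SMAD phosphatase PPM1A, which was named after its value was seen. Without the fifth control array 2 passed it (ID3 and NEDD4), as did 633 of all genes. Under every other alternative none of the 48 passed it. None of the 4 core genes passed it under any alternative. The methods' t-test gave 4 genes at 0.01, 12 at 0.05 and none after adjustment. Of all 26303 genes it gave 1726 (6.56%) at 0.01, 5751 at 0.05 and none after adjustment.

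Of 7 measured genes for ligands and their activation, 4 were higher and 3 lower. TGFB1, the main ligand of blood and platelets, had the lowest p of this role. Its controls ranged from 0.32 to 0.86 (median 0.58) and its cold arrays were 1.29, 0.60, 1.18 and 0.92. All cold arrays but the second lay above the controls. The log2 change was 0.43 (standard error 0.15, limma p = 0.0168, adjusted p = 0.133, exact permutation p = 0.0429), and it was -0.05 in Cy3 alone, beside a median of all genes of -0.04, and -0.18 with median centring, which was 0.25 above the median of all genes under that scaling. Platelet genes were higher in the same arrays. All 5 measured platelet markers of 8 had a higher mean in cold, their mean log2 ratio per array ranged from -0.06 to 1.25 in control and from 0.74 to 1.77 in cold. The second cold array had platelet markers at 0.74 and TGFB1 at 0.60, each the lowest of the cold arrays, and the sixth control array had platelet markers at 1.25, the highest of the controls, and TGFB1 at 0.36. The part of platelets in the value of TGFB1 was not tested.

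Of 7 measured receptor and co-receptor genes, 6 had a lower mean in cold (median change -0.21), and 1 passed the threshold. This was BAMBI, a decoy receptor without a kinase that TGF-beta and BMP signals can induce. BAMBI was -0.66 to -0.12 in control (median -0.42) and -0.94, -0.74, -0.85 and -1.62 in cold. The groups did not overlap, which held for 5.22% of all genes. BAMBI fell by 0.63 on the log2 scale (standard error 0.17, limma p = 0.00279, adjusted p = 0.0846, exact permutation p = 0.00476, the smallest that 210 splits can give). The value rests on 1 of 4 probes, the others being too dim, and it was 0.06 in Cy3 alone and 0.13 in the deposited value table. The direction of BAMBI therefore depended on the scaling.

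**Figure D4:**
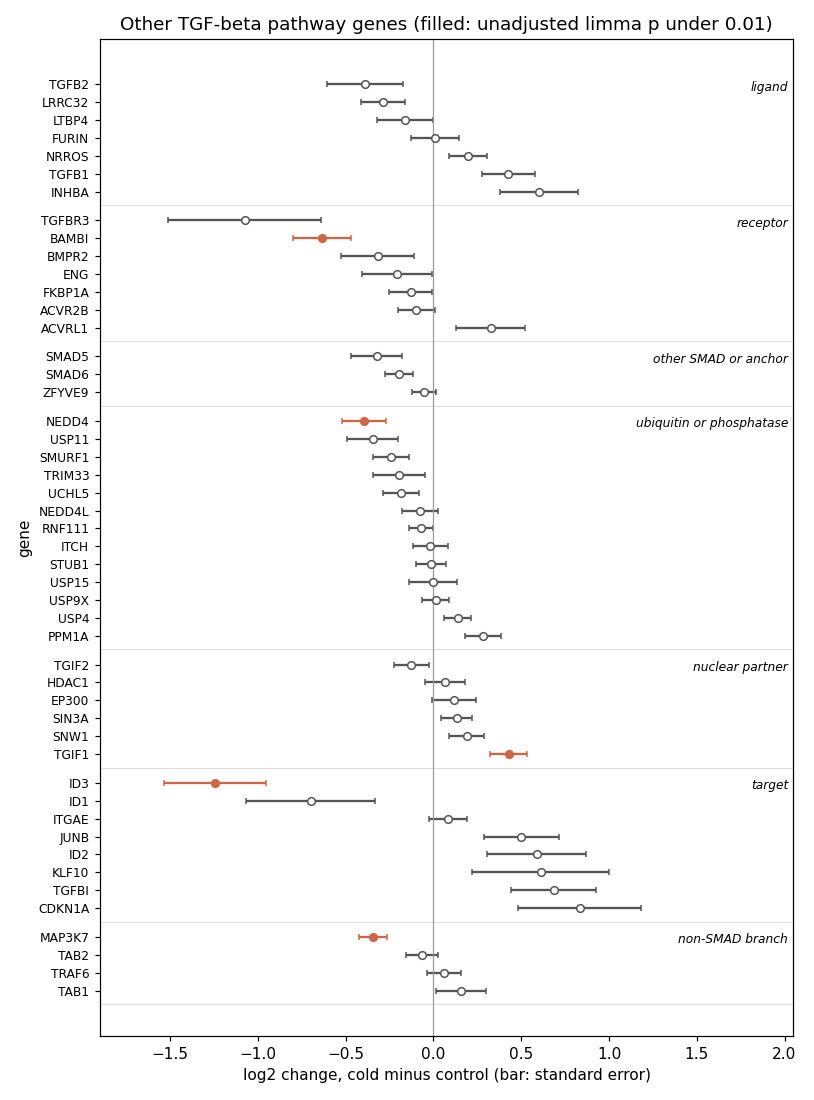
Log2 change (cold minus control) with its standard error of the 48 other measured pathway genes, grouped by role, with filled orange points for an unadjusted limma p under 0.01. Receptor genes lie mostly below 0, among the targets ID1 and ID3 lie at -0.70 and -1.24, ITGAE at 0.08 and the other 5 between 0.50 and 0.83, and only TGIF1 of the 5 filled points lies above 0.

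The other measured SMADs and the SMAD anchor (3 genes) were all lower in mean. SMAD6, the inhibitory SMAD of the related BMP branch, had the lowest p of them. It was dim, and none of its 7 probes was well above Cy3 background on more than 5 control or 3 cold arrays. Its controls ranged from 0.02 to 0.26 (median 0.17), and its cold arrays were -0.13, 0.03, -0.16 and 0.07. The first and the third cold array lay below all controls. The log2 change was -0.20 (standard error 0.08, limma p = 0.0311, adjusted p = 0.166, exact permutation p = 0.0286), and 0.23 in the deposited value table.

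Of 13 measured ubiquitin and phosphatase genes, 10 were lower and 3 higher in mean, with a median change of -0.07, and NEDD4 passed the threshold. NEDD4 is the ubiquitin ligase after which the family that PMEPA1 and LDLRAD4 bind is named. NEDD4 was -0.55 to 0.07 in control (median -0.11) and -0.82, -0.40, -0.44 and -0.54 in cold. A single control array, the fifth, lay among the cold arrays, and the other 5 lay above all of them. NEDD4 fell by 0.39 on the log2 scale (standard error 0.12, limma p = 0.00900, adjusted p = 0.112, exact permutation p = 0.0286). Its p was above 0.01 in 13 of 22 alternatives, among them leaving out any array other than the fifth control and the second cold. The other measured members of this family with a role in the pathway gave smaller values, with a log2 change of -0.24 for SMURF1 (exact permutation p = 0.0619, limma adjusted p = 0.181), -0.08 for NEDD4L (exact p = 0.443, adjusted p = 0.675) and -0.02 for ITCH (exact p = 0.824, adjusted p = 0.931). With 1 array left out it was -0.14 (without the fifth control array) to -0.04 (without the second control array) for NEDD4L. For NEDD4L and ITCH the sign also turned in Cy3 alone, with 0.20 and 0.17. The log2 change of SMURF1 was -0.04 there, level with the median of all genes (-0.04). With processed intensities it was -0.54, beside a median of -0.10.

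Among 6 measured nuclear partners of the SMADs, 5 were higher in mean and TGIF1 passed the threshold. TGIF1 is a homeobox corepressor that competes with coactivators for SMAD2. TGIF1 was 0.11 to 0.35 in control (median 0.21) and 0.80, 0.35, 0.84 and 0.65 in cold. The second cold array lay just under the highest control and the other 3 lay above all controls. TGIF1 rose, with a log2 change of 0.43 (standard error 0.10, limma p = 0.00167, adjusted p = 0.0736, exact permutation p = 0.00952). In Cy3 alone the value was 0.24 (limma adjusted p = 0.242), and its p was above 0.01 in 4 of 22 alternatives, with the same sign in all of them.

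Of the 8 measured genes that TGF-beta is known to regulate, 6 were higher and 2 lower in mean, with a median change of 0.54, and 1 passed the threshold. ID3, an inhibitor of DNA binding that sequesters basic helix-loop-helix factors, was -2.30 to -0.70 in control (median -1.19) and -2.61, -2.26, -2.98 and -2.61 in cold. Only the sixth control array reached the cold arrays. ID3 fell by 1.24 on the log2 scale (standard error 0.29, limma p = 0.00134, adjusted p = 0.0736, exact permutation p = 0.0143), and it kept its direction in every alternative, with the limma p above 0.01 in Cy3 alone only (change -0.89, adjusted p = 0.143). The related ID1 had a log2 change of -0.70 (exact permutation p = 0.129, limma adjusted p = 0.258), while ID2 had one of 0.59 (exact p = 0.110, adjusted p = 0.225). Neither ID1 nor ID2 passed the threshold.

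The remaining targets did not pass the threshold in limma. TGFBI, an extracellular matrix protein named for its induction by TGF-beta, ranged from -0.06 to 0.76 in control and was 1.25, 1.14, 1.76 and 0.41 in cold, a log2 change of 0.68 (exact permutation p = 0.0333, limma adjusted p = 0.133). CDKN1A, the cell cycle inhibitor p21, ranged from -0.60 to 0.93 in control and was -0.04, 1.18, 1.19 and 1.23 in cold, a log2 change of 0.83 (exact permutation p = 0.0857, limma adjusted p = 0.179). JUNB, an AP-1 subunit, had a log2 change of 0.50 (exact permutation p = 0.0762, limma adjusted p = 0.183), KLF10, an early TGF-beta response factor, one of 0.61 (exact p = 0.224, adjusted p = 0.351), and ITGAE, the integrin of tissue-resident T cells, one of 0.08 (exact p = 0.486, adjusted p = 0.674). Their spread was wide, and the cold arrays overlapped the control arrays for each of them. Leaving out 1 array gave log2 changes from 0.20 (without the third cold array) to 1.00 (without the first) for KLF10, and from 0.31 to 0.86 for ID2 with the same arrays left out. For ITGAE it gave 0.008 (without the fourth cold array) to 0.13 (without the first). ID2 passed the threshold without the first cold array (limma adjusted p = 0.135), as did CDKN1A, and TGFBI passed without the fourth (0.93, adjusted p = 0.0823). JUNB and TGFBI also passed with the replicate number as a block (0.49 and 0.62, adjusted p = 0.102 and 0.106). With median centring, where the median of all genes was -0.43, the log2 changes of CDKN1A, ID2, JUNB, TGFBI and ITGAE were below 0, while relative to that median only JUNB was lower (-0.16) and CDKN1A lay 0.36, TGFBI 0.12, ITGAE 0.06 and ID2 0.03 above it. Those of JUNB and ITGAE were within 0.01 of 0 in the deposited value table, and that of ID1 was 0.03 in Cy3 alone.

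In the branch that signals without SMADs, 1 of 4 measured genes passed. MAP3K7, the kinase TAK1 that TRAF6 activates below the TGF-beta receptors, was -0.11 to 0.15 in control (median -0.04) and -0.52, -0.37, -0.28 and -0.28 in cold. The groups did not overlap, which held for 2 of the 48 measured pathway genes (4.17%) and for 5.22% of all genes. MAP3K7 fell by 0.34 on the log2 scale (standard error 0.08, limma p = 0.00124, adjusted p = 0.0736, exact permutation p = 0.00476). In Cy3 alone the change was -0.17 (limma adjusted p = 0.513), and its p was above 0.01 in 4 of 22 alternatives, all with the same sign.

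Several lists of blood cell markers also differed between the groups. In bulk PBMC, fewer cells of a type and less RNA per cell cannot be told apart. T cell markers, 8 measured of 9, had a mean log2 ratio per array of 0.11 to 0.45 in control and of -0.78 to 0.11 in cold (difference -0.45, exact permutation p = 0.00952), with 7 of 8 lower in mean (52.0% of all genes) and 1 of 8 lower past the threshold of 0.01 (3.43% of all genes). Without the third cold array the difference was -0.23. On that array the T cell markers were at -0.78, PMEPA1 at -0.64 and LDLRAD4 at -0.93, and on the fourth cold array they were at 0.09, -0.35 and -0.94. The fourth control array and the first cold array both had the T cell markers at 0.11, with PMEPA1 at 0.41 and 0.09 and LDLRAD4 at -0.26 and -0.72. Monocyte markers, 5 of 7 measured, ranged from -0.16 to 0.41 in control and from 0.25 to 0.99 in cold (difference 0.42, exact permutation p = 0.0429). Of these 5, 4 were higher in mean and CD163 was lower (log2 change -0.62). Neutrophil markers, 4 of 8 measured, differed by 0.71 (exact permutation p = 0.0238), platelet markers by 0.77 (exact permutation p = 0.0429) and erythroid markers, 4 of 7 measured, by -1.03 (exact permutation p = 0.00476). B cell markers, 5 of 7 measured, differed by -0.15 (exact permutation p = 0.610) and cytotoxic cell markers, 3 of 7 measured, by 0.07 (exact permutation p = 0.781). With 1 array left out the B cell difference moved to between -0.34 (without the sixth control array) and -0.04 (without the fourth), and the cytotoxic one to between -0.08 (without the fourth cold array) and 0.28 (without the third). Past the threshold of 0.01, and higher in cold, were 2 of 5 monocyte, 1 of 4 neutrophil and 2 of 5 platelet markers (5.21% of all genes), while 1 of 4 erythroid markers was lower and no B cell or cytotoxic marker passed. The 7 marker p values are not adjusted. The part of the cell make-up in the values of PMEPA1, LDLRAD4 and the other genes was not tested. Without the third cold array, the log2 change was -0.53 for PMEPA1 and -0.40 for LDLRAD4.

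To see how the genes moved from ferret to ferret, the mean of each group was subtracted and the deviations were correlated over the 10 arrays, as a description. PMEPA1 and LDLRAD4 had a Pearson r of 0.40 with each other, which was above that of 87.7% of the 9275 other named genes with PMEPA1. PMEPA1 had r = 0.72 with SMAD7, 0.60 with SMAD3, -0.11 with SMAD2 and -0.74 with SKIL. LDLRAD4 had r = 0.76 with SMAD3, 0.55 with SMAD7, 0.07 with SMAD2 and -0.44 with SKIL. The genes most like PMEPA1 were CIAO1 (r = 0.95, log2 change -0.19), LOC101682083 (r = 0.94, log2 change -0.28) and ZC3HAV1 (r = 0.90, log2 change -0.24). Those most like LDLRAD4 were RIMKLB (r = 0.92, log2 change 0.03), RPS25 (r = 0.91, log2 change -0.11) and DOCK2 (r = 0.91, log2 change -0.10). Leaving out 1 array moved several of these changes by over 1.5 times, to between -0.29 and -0.15 for CIAO1, -0.39 and -0.17 for LOC101682083, -0.39 and -0.13 for ZC3HAV1, -0.24 and -0.05 for RPS25, and -0.19 and -0.03 for DOCK2. All of these values share the arrays, their loess curves and the pool, and they are the highest of many genes.

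Within the 6 control arrays alone, 15 pairs of the 6 genes were compared. The closest pair was PMEPA1 with SMAD2, at a Pearson r of 0.931 (exact permutation p = 0.00833, adjusted p = 0.125) and a Spearman rho of 0.886 (exact permutation p = 0.0333, adjusted p = 0.146). Without the 2 arrays farthest from the median of PMEPA1, r was 0.910, but over all 10 arrays, as given above, the same pair had r = -0.11. PMEPA1 and LDLRAD4 had r = 0.416 (exact permutation p = 0.414, adjusted p = 0.498) and rho = 0.543 (exact permutation p = 0.297, adjusted p = 0.371), and without the 2 farthest arrays, on the 4 that were left, r was 0.918. None of the 15 pairs passed an adjusted p of 0.05.

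The lower values of PMEPA1 and LDLRAD4 kept their direction under all 21 alternatives of normalization, filtering, model and left-out array, while their size depended on the scaling. PMEPA1 lay between -1.56 and -0.53, and LDLRAD4 between -0.99 and -0.31. With median centring of the arrays the median of all genes moved to -0.43 (81.5% of the genes called were then lower, in place of 39.7%). Relative to that median, PMEPA1 was at -1.14 and LDLRAD4 at -0.57.

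**Figure D5:**
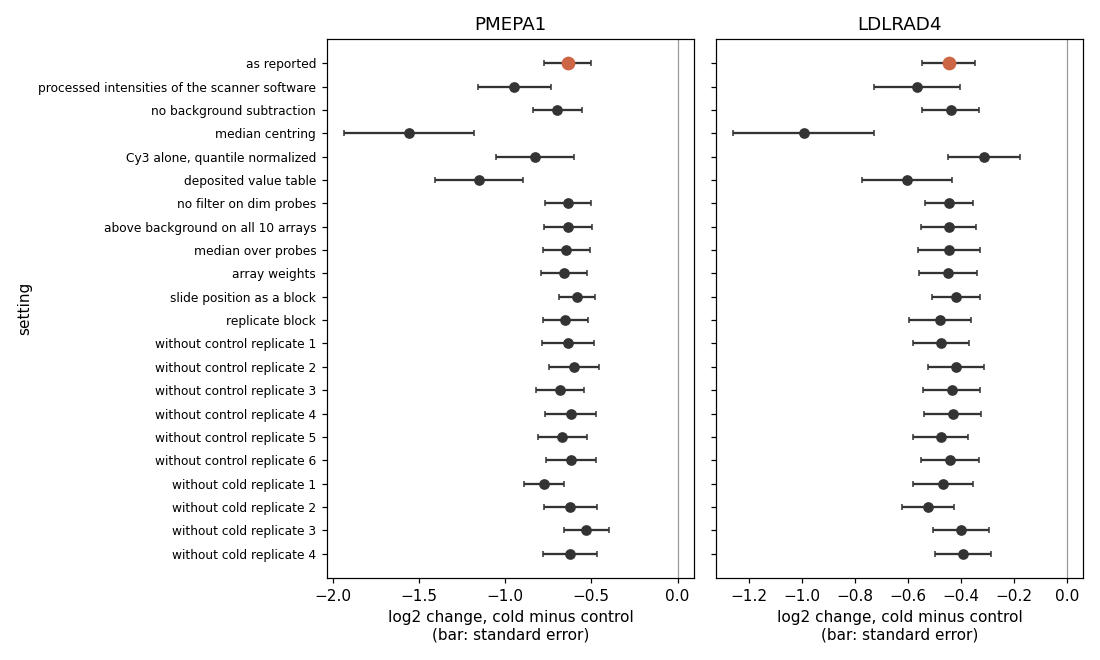
Log2 change (cold minus control, with its standard error) of PMEPA1 and LDLRAD4 as reported (orange) and under each of 21 alternatives (black). All points lie below 0, with the largest sizes for median centring at -1.56 and -0.99.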

How the data were processed

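The authors hybridised Cy3-labelled PBMC RNA of single ferrets against a Cy5-labelled pool on custom Agilent arrays and deposited, for each array, spot intensities and flags from Agilent Feature Extraction 10.7.3.1, not yet normalized. The authors' deposited log2 table, with 1 value per sequence and array and unstated scale and centring, served as an alternative. A spot's median intensity was taken, as the files used here give no mean. In limma 3.58.1 (R 4.3.3), background was corrected by normexp (offset 50) and ratios were normalized by loess (span 0.3, 4 iterations). Control and outlier spots were left out. Spots were averaged per probe and probes per gene, keeping probes with at least 0.5 of their spots above Cy3 background on 4 arrays (111051 of 181312 probes).

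Accessions were named through the RefSeq table of assembly ASM1176430v1.1, which matched 21104 of 45328 target sequences, and no coordinates are given. Groups were compared with lmFit and eBayes over 26303 genes with Benjamini-Hochberg adjustment, and single values by exact two-sided permutation tests over 210 splits. Of the 26303, 9276 had a gene symbol and the rest were unnamed target sequences, each counted as a gene. The members and gene lists were chosen with earlier results of these data known. Named genes were the members, each pathway gene with an unadjusted p under 0.01 and the lowest p of each role, and the 3 genes most like PMEPA1 and LDLRAD4. The whole target role and the NEDD4 family were named in addition, chosen after their values were seen. Tested on simulated data in which 200 of the 26303 genes differed by 2 log2 units, limma found 98.5% of them. Of its calls, 6.64% were false. The recovery of smaller differences, such as those of the members, was not tested. The alternatives were the scanner software's processed intensities, no background subtraction, median centring, Cy3 alone, the deposited table, other filters, the median over probes, the methods' t-test, array weights, blocks for slide position or replicate number, and omitting 1 array at a time. The number of arrays limits the precision of every value.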

Additional observations from a re-analysis of the deposited data

Results flagged for a closer look

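SMAD7 had 1 cold array far from the other 3. The third cold array was at a log2 ratio of 0.125, while the next lowest was at 0.563 and the highest at 0.607, and the gap took up 0.907 of the range. CDKN1A also had such an array, the first cold array, at -0.044, where the next lowest was at 1.182 and the highest at 1.233 (0.960 of the range). These were 2 of 46 groups of arrays looked at, and chance gives about 1 in 20. Without the first cold array, the log2 change of CDKN1A was 1.14 (limma adjusted p = 0.133). Without the third, that of SMAD7 was 0.235. The cause of either value was not tested.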

How the results depend on the processing

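PMEPA1 and LDLRAD4 were lower under all 21 alternatives, with larger sizes in the deposited value table (-1.15 and -0.60), with median centring (-1.56 and -0.99) and, for PMEPA1, with processed intensities (-0.95). Leaving out 1 array gave -0.77 to -0.53 for PMEPA1 and -0.52 to -0.39 for LDLRAD4. The count of 0 core genes became 1 with processed intensities (SMAD2), with slide position as a block (SKIL) and without the fourth cold array (SKIL), so that leaving out 1 array gave 0 to 1. The count of 5 pathway genes became 3 with processed intensities and 1 with median centring, in Cy3 alone and in the deposited table. Of all genes, 5.72% passed with processed intensities, 4.42% with median centring, 9.84% in Cy3 alone and 4.16% in the deposited table. Leaving out 1 array gave 4 to 8 pathway genes, with 8 without the fifth control or the second cold array. There 12.7% and 12.9% of all genes passed. The cause was not tested.

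Some log2 changes turned their sign. In Cy3 alone these were SMAD7 (-0.038), ID1 (0.029), NEDD4L (0.20), ITCH (0.17), BAMBI (0.062) and TGFB1 (-0.047). With median centring they were SMAD7 (-0.34), CDKN1A (-0.066), ID2 (-0.39), JUNB (-0.59), TGFBI (-0.31), ITGAE (-0.36), ITCH (0.13) and TGFB1 (-0.18), beside a median of all genes of -0.43. In the deposited table they were SMAD2 (0.022), JUNB (-0.008), ITGAE (-0.001), NEDD4L (0.065), ITCH (0.47), BAMBI (0.13) and SMAD6 (0.23). With processed intensities they were SMAD7 (-0.33), ITCH (0.11) and RIMKLB (-0.37), where 57.5% of the genes called were lower. Leaving out 1 array gave -0.055 to 0.037 for ITCH and -0.071 to 0.082 for RIMKLB, which was also at -0.15 without the filter and at 0 with the replicate block. Without the fifth control array 3352 genes had a p under 0.01, and 56.4% were lower.

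Both groups are numbered from 1. The deviations of same-numbered arrays correlated at -0.30, 0.54, 0.10 and -0.19, so the numbers did not pair the arrays. With the replicate block, 2459 genes had a p under 0.01 in place of 2272, the core count was 0 and the pathway count 7, PMEPA1 was at -0.65 and LDLRAD4 at -0.48, and MAP3K7 had a p of 0.0240.

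Cy5 was the dimmer channel, with a median intensity of 44 to 80 in control and 48 to 152 in cold, and some probes of SMAD2 and SMAD3 were well above background in Cy5 on 3 of 10 arrays, which limits their ratios.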
